A study of Mus musculus with 6 samples.

Results

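The 53 genes described here encode the machinery that divides a cell: the kinases and cyclins that start mitosis, the spindle checkpoint, the regulators of anaphase and of cohesion, the chromosomal passenger complex, kinetochore proteins, spindle proteins, the midzone and cytokinesis machinery, and chromosome scaffold proteins including Mki67 and Top2a. They were taken by gene symbol from the platform annotation of an Affymetrix mouse expression array. Each gene was represented by the probe set with the highest mean log2(signal + 1) over all arrays. In this way 52 of the 53 genes were measured among 18193 genes in all, and no probe set was listed for Ccnb1 alone. The 52 genes had 117 probe sets, and 35 of them had more than 1.

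RNA came from uterine epithelium of pregnant mice, freed from the uterus with pancreatin and dispase, and 6 arrays were run, 2 in each of 3 groups. The first group was Sox17GFP/+ females on day 4 of pregnancy (arrays 253 and 281), which carry a GFP allele of the transcription factor gene Sox17 beside a normal one and are called heterozygous here. The second was wild-type (WT) females on day 4 (277 and 284), and the third WT females on day 1, when the vaginal plug was seen (302 and 303). No treatment, Cre driver, strain or age of the mice was given in the sources used here, and it was not stated whether an array holds 1 animal or a pool. The samples carry different numbers, but nothing stated that they came from separate animals, so p-values measure only the spread between these samples.

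In dividing cells, cyclin B with CDK1 starts mitosis, and the spindle checkpoint holds anaphase until every kinetochore is attached to microtubules. CDC20 then activates the anaphase-promoting complex, which marks securin and cyclin B for destruction. Most of these genes are transcribed as a wave in G2 and mitosis, driven by the MuvB complex with B-MYB and FOXM1 on promoter elements called CHR and by NF-Y on CCAAT boxes, and are shut by the DREAM complex in resting cells. In the mouse uterus the epithelium is known to divide under estrogen just after mating and to stop before implantation, when progesterone turns division to the stroma.

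Promoter windows were read to see whether the genes of the set share the elements that this wave uses. Of the 53 genes, 42 had an entry in the RefSeq promoter table (GRCm38.p6, 250 bases before to 50 after a gene start), with 46 promoters among 32851. The letters CCAAT, on either strand (ATTGG on the other), stood in 35 of the 46 windows, or 76.1%, against 37.4% of all promoters. The CHR letters TTTGAA, or TTCAAA on the other strand, stood in 32, or 69.6%, against 17.9%, and both motifs stood together in 60.9% against 6.95%. The related letters TTTAAA, which read the same on both strands, were in 19.6% against 13.2%. Matches of 2 motifs shared a base in 1 window. Of the 41 TTTGAA matches, 73.2% began between 60 bases before and 49 after the start, against 28.2% of such matches over all promoters. The 3 windows below are genes of 3 roles that were higher in heterozygous than in WT day 1 epithelium and differ in their motifs. Each is written 5′ to 3′ on the gene's strand, with every CCAAT and TTTGAA match, on either strand, in capitals.
Top2a, chr11:99024140-99024439, minus strand, with 6 CCAAT and 2 TTTGAA matches: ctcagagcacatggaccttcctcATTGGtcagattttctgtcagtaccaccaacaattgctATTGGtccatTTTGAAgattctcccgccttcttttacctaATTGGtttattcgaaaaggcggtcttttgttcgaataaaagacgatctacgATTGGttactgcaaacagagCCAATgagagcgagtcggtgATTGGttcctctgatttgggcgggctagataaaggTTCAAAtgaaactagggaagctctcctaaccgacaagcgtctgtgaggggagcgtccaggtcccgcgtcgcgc
Bub1, chr2:127831810-127832109, minus strand, with 2 CCAAT matches: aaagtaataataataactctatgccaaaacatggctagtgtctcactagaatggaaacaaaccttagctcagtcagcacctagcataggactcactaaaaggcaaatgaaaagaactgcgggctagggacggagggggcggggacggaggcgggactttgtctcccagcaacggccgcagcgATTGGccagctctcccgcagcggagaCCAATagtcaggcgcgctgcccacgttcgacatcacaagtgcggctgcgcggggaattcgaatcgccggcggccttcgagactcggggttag
Anln, chr9:22389157-22389456, minus strand, with 2 TTTGAA matches: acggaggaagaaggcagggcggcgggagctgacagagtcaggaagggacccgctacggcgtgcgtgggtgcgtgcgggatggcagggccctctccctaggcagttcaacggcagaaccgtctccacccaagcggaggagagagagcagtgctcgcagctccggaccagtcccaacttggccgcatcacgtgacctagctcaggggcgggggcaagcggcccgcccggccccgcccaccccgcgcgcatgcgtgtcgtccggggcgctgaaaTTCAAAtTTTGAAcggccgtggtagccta
The TTTGAA matches of Anln began 21 and 28 bases after the start and the nearer one of Top2a 23 before it, while the Bub1 window held no TTTGAA. The similar letters TTCGAA stood in the Bub1 and Top2a windows but were not searched for, so no lack of a CHR is read from this. A match is a description of the letters and not a bound site, and the windows of Ccna2, Esco2, Aurkb, Pbk, Tpx2, Incenp, Smc4, Foxm1, Cdc25c, Dlgap5 and Kif20a were not analysed here.

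**Figure D1:**
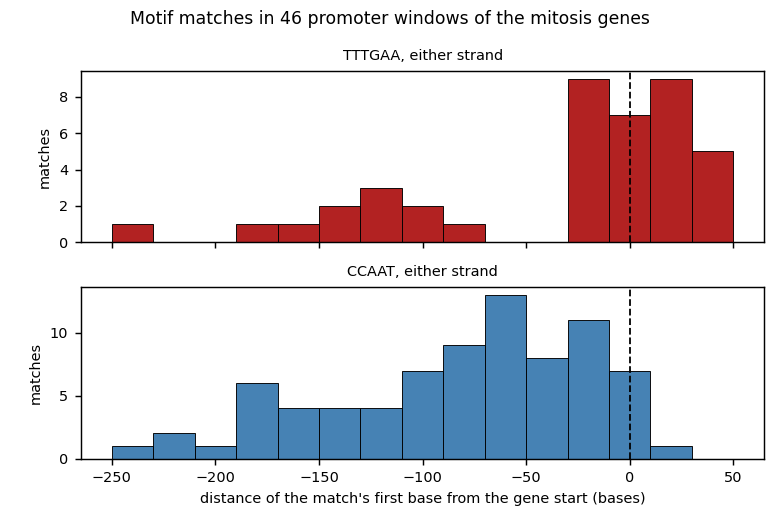
Number of TTTGAA matches (top) and CCAAT matches (bottom), on either strand, in the 46 promoter windows of the mitosis genes, by the distance of the match's first base from the gene start in bases (bins of 20 bases, dashed line at the start). The TTTGAA matches crowd around the start, and the CCAAT matches lie mostly before it, with a median of -67.5.

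The deposited values are linear signals with the same trimmed mean of 500 on each array. A signal under 50 is called low here, since no detection calls were used. WT day 4 array 277 stood apart in its dim range: its median signal over all probe sets was 138, against 66.2 to 78.0 on the other 5 arrays, so the heterozygous arrays were also set against each WT day 4 array alone. Sox17 itself had 30189 and 28810 in heterozygous, 34794 and 35060 in WT day 4 and 7738 and 8671 in WT day 1 epithelium, a log2 change of -0.24 ± 0.19 between heterozygous and WT day 4 epithelium (limma, adjusted p = 0.586). Summed signals of 10 epithelial markers lay between 170702 and 207462 on all arrays. Markers of other cell types moved with the groups. The 10 stromal markers summed to 1155 and 1677 in heterozygous, 2405 and 3213 in WT day 4 and 13190 and 19025 in WT day 1 epithelium, with Pdgfra low on all arrays, and 9585 and 9945 of the day 1 sums were Fbln1 alone. The other 9 summed to 508 and 901 in heterozygous, 1787 and 2834 in WT day 4 and 3606 and 9080 in WT day 1 epithelium. The 8 macrophage markers, none of them low on all arrays, summed to 1603 and 1464 in heterozygous, 3090 and 1738 in WT day 4 and 6881 and 6399 in WT day 1 epithelium. The day 1 sums were mostly Cd68 (6401 and 5746), and the other 7 ran otherwise, with 1295 and 1297 in heterozygous, 2866 and 1580 in WT day 4 and 480 and 653 in WT day 1 epithelium. The 9 blastocyst markers summed to 608 and 545 in heterozygous, 1292 and 1158 in WT day 4 and 332 and 349 in WT day 1 epithelium, and their defining genes Pou5f1, Nanog, Cdx2 and Dppa3 were low on all arrays. Elf5 was the brightest of them, and the other 8 summed to 187 and 224 in heterozygous, 734 and 190 in WT day 4 and 237 and 235 in WT day 1 epithelium. The summed markers of smooth muscle, endothelium, neutrophils, lymphocytes, erythroid cells and sperm reached at most 940 on any array. Each of these sums was higher on WT day 4 array 277 than on array 284. Both heterozygous arrays lay below both WT day 4 arrays in each. Endothelial markers summed to 178 and 172 in heterozygous, 740 and 284 in WT day 4 and 180 and 283 in WT day 1 epithelium. Lymphocyte markers summed to 82 and 77 in heterozygous, 508 and 221 in WT day 4 and 161 and 139 in WT day 1 epithelium. The stromal and macrophage sums, with and without the brightest gene, were lower in heterozygous than in WT day 4 epithelium, as was the blastocyst sum as long as Elf5 was included, whereas most mitosis genes were higher in heterozygous epithelium, and the part of these markers in the results was not tested. In such bulk RNA, more dividing cells and more of each RNA per cell cannot be told apart.

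Heterozygous epithelium on day 4 had the highest signals of the mitosis genes, and WT epithelium on day 1 the lowest. The median signal over the 52 genes was 291 and 312 on the heterozygous arrays, 182 and 71.0 on the WT day 4 arrays, and 56.8 and 51.7 on the WT day 1 arrays. The median over all genes moved otherwise, with 176 and 159 in heterozygous, 237 and 149.9 in WT day 4 and 161 and 168 in WT day 1 epithelium. Of the 52 genes, 2 were low on each heterozygous array, 6 and 22 on the WT day 4 arrays 277 and 284, and 21 and 26 on the WT day 1 arrays. Over all genes the shares that were low were 35.2% and 36.1% on the heterozygous arrays and 33.9% and 34.6% on the WT day 1 arrays. On the WT day 4 arrays they were 19.3% on array 277, the fewest, and 35.4% on array 284. The highest of the 6 signals stood on the heterozygous arrays for 22 and 18 genes, and the lowest on the WT day 1 arrays for 12 and 23. Both heterozygous arrays lay above all 4 WT arrays for 39 of the 52, a pattern shown by 8.66% of all genes. For 18 of these, both WT day 4 arrays also lay above both WT day 1 arrays, a stepwise order shown by 4.01% of all genes.

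**Figure D2:**
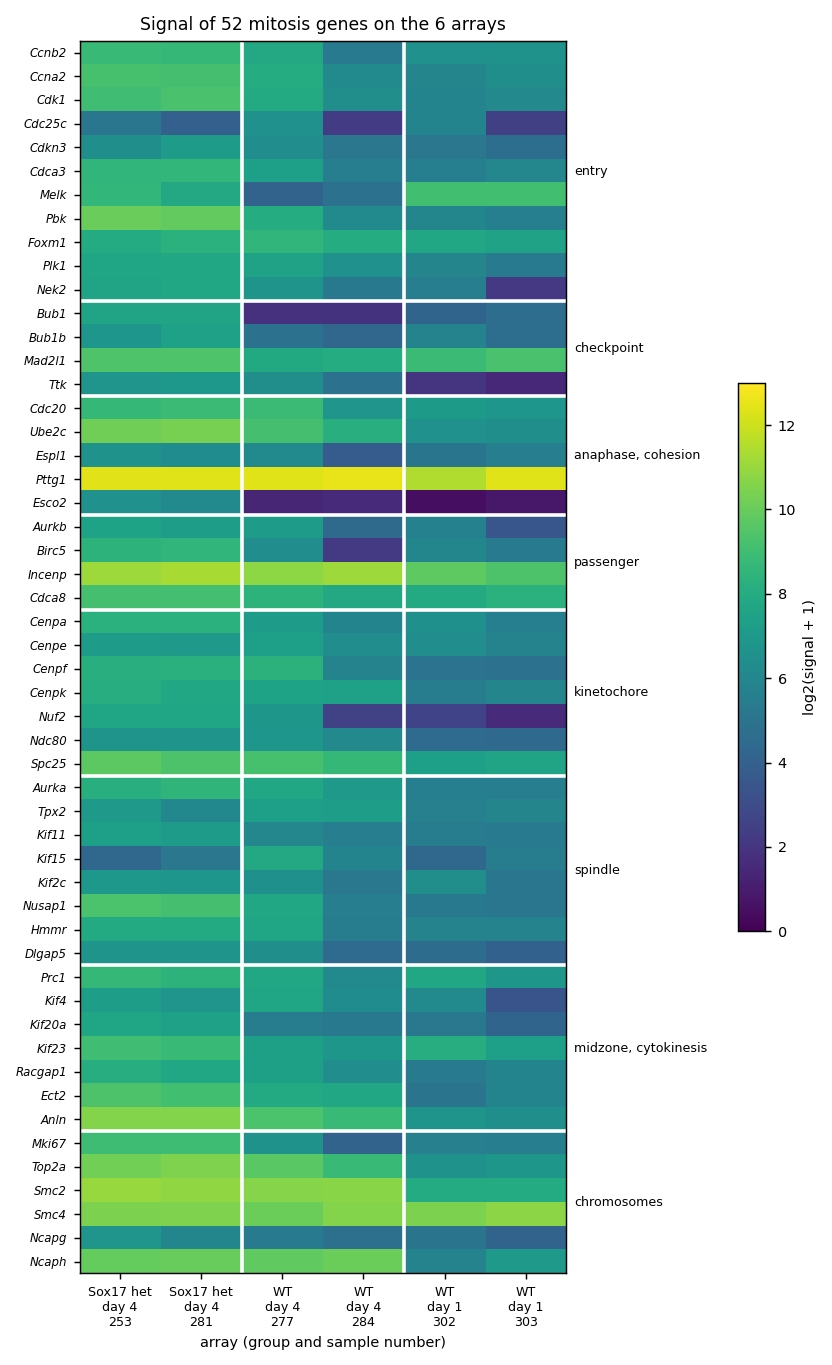
Signal of each of the 52 measured mitosis genes (rows, by role) on the 6 arrays (columns: Sox17 heterozygous day 4, WT day 4, WT day 1), as log2(signal + 1) in colour. Colours compare arrays within a row, since signals of different probe sets are not on 1 scale. In 39 rows both heterozygous columns are brighter than all 4 WT columns, and array 284 lies above both day 1 columns in 26.

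**Figure D3:**
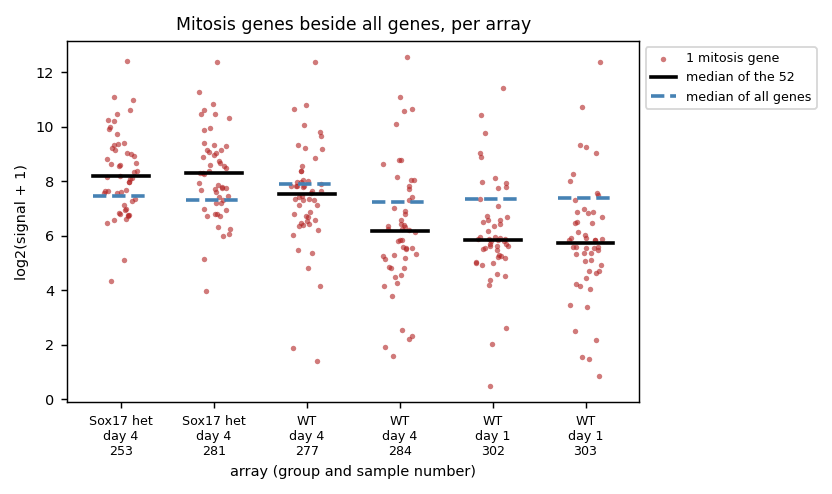
Signals of the 52 mitosis genes (points, log2(signal + 1)) on each array, with their median (black line) and the median of all 18193 genes (dashed line). The black line lies above the dashed one on both heterozygous arrays and below it on all 4 WT arrays.

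The comparison of heterozygous with WT epithelium on day 4 asks how carriage of the Sox17 GFP allele goes with the set. The signals of 47 genes were on average higher and those of 5 lower, with a median log2 change of 1.32, against -0.20 over all genes. Both heterozygous arrays lay above both WT day 4 arrays for 40 of the 52 (18% of all genes did so), below them for 2 (30.6%), and overlapped for 10. In limma with default settings, 0 of the 52 passed an adjusted p under 0.05, as did 0% of all genes. At an unadjusted p under 0.05, 23 of the 52 were higher (4.56% of all genes) and 0 lower (8.66%). With a prior that follows the signal's brightness (the trend fit), 9 of the 52 rose, against 1.93% of all genes, and 0 fell, against 1.59%. They were Anln, Bub1, Esco2, Kif23, Mad2l1, Melk, Mki67, Pbk and Ube2c. These calls rest on both heterozygous arrays: without array 253 none of the 52 passed (17 at an unadjusted p under 0.05), and without array 281 only Melk passed. More passed without WT day 4 array 277. Counts of genes passing without 1 array, here and below, stand without the share of all genes in the same fit. They show how calls hang on single arrays and are no result about the set. The median change was 1.98 without array 277 and 0.61 without array 284.

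WT epithelium on day 4 was set against WT on day 1 to follow the set between the days in the absence of the allele. Here 11 of the 52 rose (7.58% of all genes rose) and 3 fell (5.73%) in the default fit, with a median log2 change of 0.89 against 0.30 over all genes. The genes that rose were Anln, Aurka, Cenpk, Ect2, Incenp, Ncaph, Ndc80, Smc2, Top2a, Ttk and Ube2c, and those that fell were Bub1, Mad2l1 and Melk. Arrays did not overlap for 26 genes that were higher (35.4% of all genes) and 3 that were lower (21.3%). Without WT day 1 array 302 or 303, 0 of the 52 passed in the default fit (19 and 18 at an unadjusted p under 0.05), while 12 and 11 passed in the trend fit. Without heterozygous array 253 or 281, which share in the estimate of the spread, 2 passed. In the trend fit 11 of the 52 rose (14% of all genes) and 2 fell (10.8%) with all arrays, and more passed without WT day 4 array 284. The median change was 0.39 without array 277 and 1.79 without array 284. By its median the set was thus not lower on WT day 4 than on day 1, unlike the course of division given above. The reason was not tested. With a gene's probe sets averaged, 6 passed (Anln, Ect2, Melk, Ncaph, Ndc80 and Ube2c), and the change of Top2a was 0.76 (adjusted p = 0.315).

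Heterozygous day 4 epithelium was also set against WT day 1. In the default fit 18 of the 52 rose (5.07% of all genes) and 0 fell (4.48%), and in the trend fit 29 rose (11.7%) and 0 fell (9.65%), with a median log2 change of 2.25 against 0.01 over all genes. Both heterozygous arrays lay above both day 1 arrays for 48 genes (32.2% of all genes), and below them only for Melk (30.1%). This comparison shares arrays with the other two, so its values stand beside theirs and do not add to them. Without array 253, 281, 302 or 303 in turn, 0 passed in the default fit (25 to 29 at an unadjusted p under 0.05), while 15, 13, 25 and 21 passed in the trend fit. Without WT day 4 array 277 or 284, 31 passed in the default fit. In what follows, each value after ± is limma's default standard error of the log2 change, with 2 arrays per group. Where a group was low on both arrays, which held for 8 of the 52 genes in heterozygous minus WT day 4, 18 in heterozygous minus WT day 1 and 19 in WT day 4 minus WT day 1, the signals and the test are given but no size of the change. Such signals may not be above background, and the fitted differences enter the medians and calls above.

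**Figure D4:**
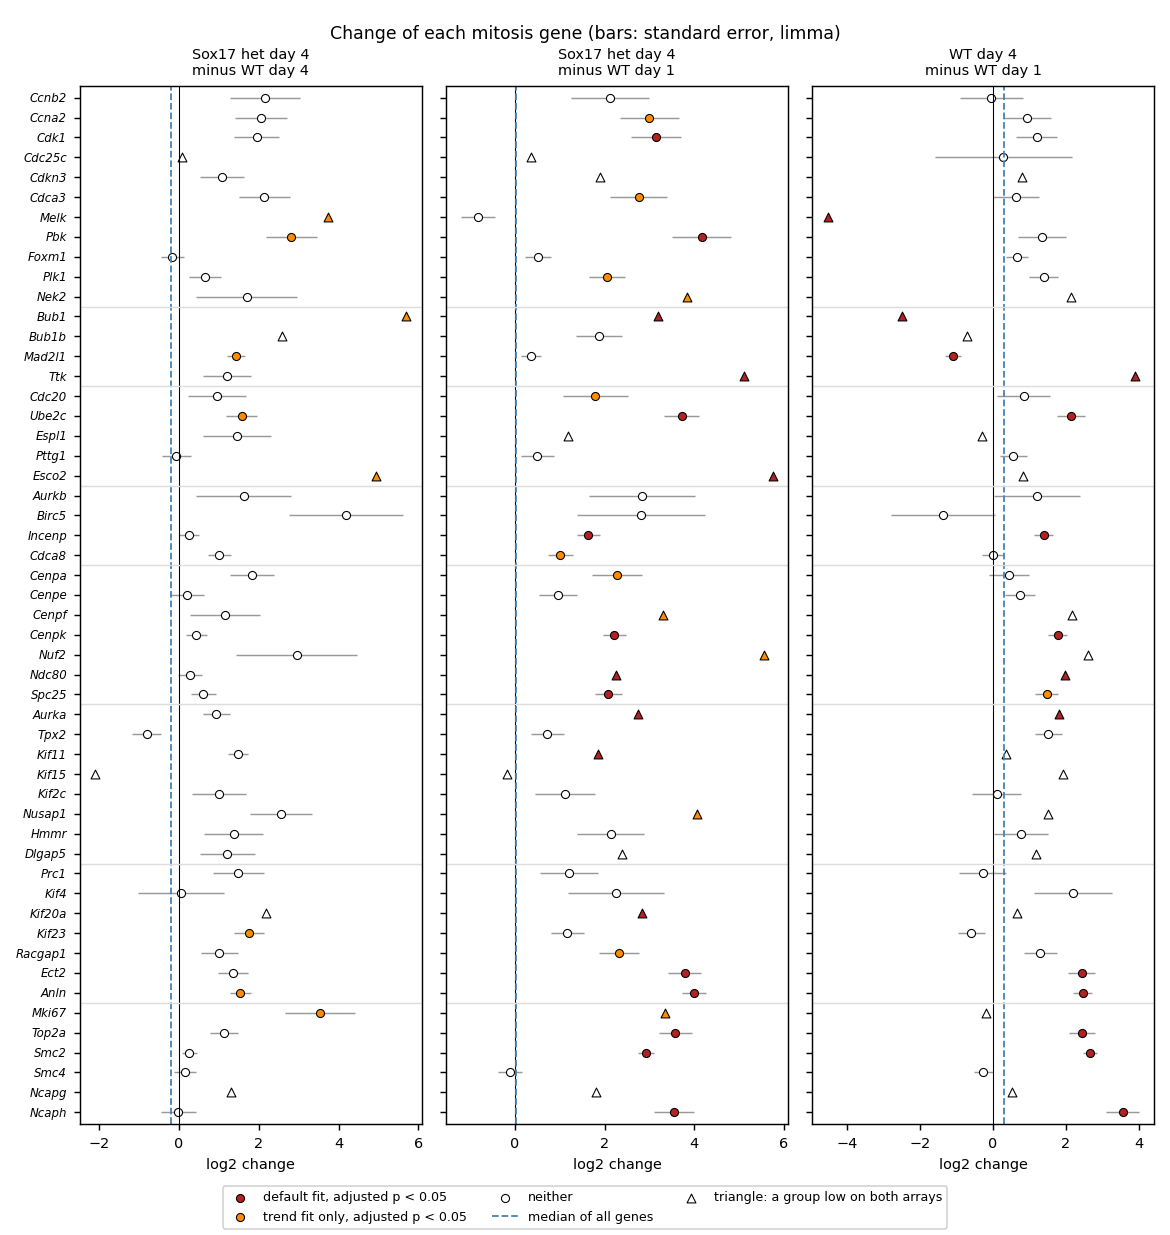
Log2 change of each of the 52 mitosis genes, by role, between heterozygous and WT day 4, heterozygous and WT day 1, and WT day 4 and WT day 1 epithelium (symbols; bars are limma's standard errors; dashed lines are medians of all genes). Triangles, without bars, mark genes for which a group was low on both arrays, so that their place shows a direction and not a size. Filled symbols passed an adjusted p under 0.05 in the default fit (red) or only in the trend fit (orange). No red symbol lies in the left panel, where most sit right of 0.

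Among the kinases, cyclins and transcription factor of mitotic entry, 9 of 11 were higher on both heterozygous arrays than on both WT day 4 arrays (18% of all genes). In the trend fit 2 of the 11 rose (1.93% of all genes). Cdk1, the kinase that drives mitotic entry, had signals of 516 and 624 in heterozygous, 249 and 85.0 in WT day 4 and 57.6 and 68.8 in WT day 1 epithelium. All 3 groups were apart, with a log2 change of 1.95 ± 0.56 against WT day 4 (adjusted p = 0.296, limma) and 3.15 ± 0.56 against WT day 1 (0.0436). Ccnb2, a B-type cyclin that activates CDK1, had 447 and 403 in heterozygous, 227 and 38.8 in WT day 4 and 93.6 and 101 in WT day 1 epithelium. The WT day 4 arrays of Ccnb2 lie on either side of day 1, and the change against WT day 4 was 2.16 ± 0.87 (adjusted p = 0.397). Pbk, a kinase active in mitotic cells, had 1029 and 939 in heterozygous, 260.3 and 73.2 in WT day 4 and 61.0 and 47.5 in WT day 1 epithelium. It rose in the trend fit against WT day 4 (2.82 ± 0.65, adjusted p = 0.0178, and 0.241 in the default fit) and in both fits against WT day 1 (4.17 ± 0.65, default adjusted p = 0.0335). Plk1, the polo kinase of centrosomes and kinetochores, had 197 and 212 in heterozygous, 177 and 94.4 in WT day 4 and 58.4 and 40.4 in WT day 1 epithelium, with a change of 0.66 ± 0.39 between heterozygous and WT day 4 (adjusted p = 0.502).

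Melk and Foxm1 departed from the other entry genes. Melk, a kinase of proliferating and stem-like cells, had 385 and 231 in heterozygous, 16.9 and 27.6 in WT day 4 and 528 and 526 in WT day 1 epithelium. Its signal was low in WT day 4 and lay in heterozygous epithelium between the WT groups, with a change of -0.82 ± 0.38 against WT day 1 that did not pass (adjusted p = 0.280). It fell in WT day 4 against WT day 1 (limma adjusted p = 0.00893), and it rose in heterozygous over WT day 4 in the trend fit only (adjusted p = 0.00256, and 0.151 in the default fit). Foxm1, the transcription factor that activates many of the other genes, had 251 and 315 in heterozygous, 376 and 263 in WT day 4 and 220.2 and 178 in WT day 1 epithelium. Its groups of day 4 overlapped, and no comparison passed, with a change of -0.16 ± 0.29 between heterozygous and WT day 4 epithelium (adjusted p = 0.813). Of its 3 other probe sets, 1 reached a signal of 100, with a log2 change of -0.58 in this comparison. On their chosen probe sets Ccna2, Cdca3, Cdkn3 and Nek2 were higher on both heterozygous arrays than on all WT arrays. Their changes against WT day 4 were 1.08 to 2.14. Both other probe sets of Cdca3 ran the other way, with -0.66 and -0.64, and those of Nek2 ran from -1.27 to 0.22. The other probe set of Ccna2 had 1.90. Cdc25c, a phosphatase that activates CDK1, overlapped between groups in each comparison.

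All 4 spindle checkpoint genes were higher on both heterozygous arrays than on both WT day 4 arrays (18% of all genes). In the trend fit 2 of the 4 rose (1.93%). Bub1, a checkpoint kinase of kinetochores, had 192 and 194 in heterozygous, 2.67 and 2.79 in WT day 4 and 17.2 and 23.6 in WT day 1 epithelium. It was thus low on all 4 WT arrays and clear of them only in heterozygous epithelium. In the default fit its adjusted p against WT day 4 was 0.125, than which no gene had a smaller one, and in the trend fit it rose (adjusted p = 0.00912). Over the settings with all arrays the default adjusted p lay between 0.0483, with a pseudocount of 32, and 0.164. The call of a fall of Bub1 between WT day 4 and WT day 1 compares low signals with low ones, and it did not pass in the trend fit (adjusted p = 0.0809).

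Mad2l1 (MAD2), which binds and inhibits CDC20, had 679.7 and 685 in heterozygous, 240.0 and 261 in WT day 4 and 468 and 608 in WT day 1 epithelium. Its WT day 4 arrays lay below all 4 others. It fell in WT day 4 against WT day 1 (-1.09 ± 0.22, limma adjusted p = 0.0489), and it rose in heterozygous over WT day 4 in the trend fit (1.44 ± 0.22, adjusted p = 0.00894, and 0.177 in the default fit). Only Bub1, Mad2l1 and Melk of the 52 had both WT day 4 arrays below the other 4, which held for 8.91% of all genes. Bub1b (BUBR1), another inhibitor of CDC20, had 113 and 174 in heterozygous, 27.5 and 18.4 in WT day 4 and 56.0 and 25.1 in WT day 1 epithelium. Both heterozygous arrays lay above all WT arrays, and the comparison with the low WT day 4 signals did not pass (adjusted p = 0.214). Ttk (MPS1), the kinase at the top of the checkpoint, had 107 and 122 in heterozygous, 86.3 and 27.4 in WT day 4 and 3.08 and 1.76 in WT day 1 epithelium. It rose already in WT day 4 over WT day 1 (limma adjusted p = 0.0273), against low day 1 signals, while the change between heterozygous and WT day 4 was 1.21 ± 0.61 (adjusted p = 0.453).

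Of the 5 genes of anaphase promotion and cohesion, 3 were higher on both heterozygous arrays than on both WT day 4 arrays (18% of all genes). Ube2c, the ubiquitin-conjugating enzyme of the anaphase-promoting complex, had 1175 and 1267 in heterozygous, 578 and 288 in WT day 4 and 94.9 and 88.5 in WT day 1 epithelium. The groups were apart at each step: it rose in WT day 4 over WT day 1 (2.14 ± 0.39, limma adjusted p = 0.0370) and in heterozygous over WT day 4 in the trend fit (1.58 ± 0.39, adjusted p = 0.0280, and 0.258 in the default fit). Esco2, which acetylates cohesin as sister chromatids are made, had 95.0 and 74.8 in heterozygous, 1.63 and 1.996 in WT day 4 and 0.395 and 0.792 in WT day 1 epithelium. Every WT signal of Esco2 was near 0, and it rose in heterozygous epithelium over WT day 4 in the trend fit (adjusted p = 0.0241, and 0.151 in the default fit). Over WT day 1 it rose in both fits (limma default adjusted p = 0.00732). Pttg1 (securin), the inhibitor of separase, had 5544 and 5314 in heterozygous, 5324 and 6037 in WT day 4 and 2786 and 5304 in WT day 1 epithelium, with day 4 groups that overlap, day 1 array 303 just below them, and a change of -0.06 ± 0.37 (adjusted p = 0.944). Espl1, separase itself, was higher on both heterozygous arrays than on all WT arrays (1.47 ± 0.85 against WT day 4, adjusted p = 0.496).

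The chromosomal passenger complex couples the kinase AURKB to centromeres and then to the midzone. On their chosen probe sets, all 4 of its genes were higher on both heterozygous arrays than on all WT arrays (8.66% of all genes), but by very different steps. Birc5 (survivin), which places the complex, had 334 and 376 in heterozygous, 80.9 and 3.60 in WT day 4 and 60.8 and 40.3 in WT day 1 epithelium. The gap was wide on both heterozygous arrays, while the WT day 4 arrays lay on either side of day 1, and the change of 4.20 ± 1.42 did not pass (adjusted p = 0.351, and 0.0764 in the trend fit). Incenp, the scaffold, had 2200.3 and 2479 in heterozygous, 1788 and 2168 in WT day 4 and 865 and 652 in WT day 1 epithelium. It rose in WT day 4 over WT day 1 (1.39 ± 0.25, limma adjusted p = 0.0372) and showed a difference of only 0.25 ± 0.25 between heterozygous and WT day 4 (adjusted p = 0.672). Another probe set of Incenp had 609 and 609 in heterozygous and 649 and 705 in WT day 4 epithelium, a change of -0.15. Further ones had -0.32 and -0.50, and another, with every signal under 50, had 0.29. No direction between heterozygous and WT day 4 is therefore given for Incenp. Cdca8 (borealin) had 569 and 544 in heterozygous, 334 and 226 in WT day 4 and 244 and 311 in WT day 1 epithelium, with the WT day 4 arrays on either side of the day 1 pair and a change of 1.02 ± 0.29 in heterozygous epithelium (adjusted p = 0.290). Aurkb itself had a change of 1.62 ± 1.18 against WT day 4 (adjusted p = 0.570).

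Of the 7 kinetochore genes, 2 rose in WT day 4 over WT day 1 (7.58% of all genes) and 3 in heterozygous over WT day 1 (5.07%). Both heterozygous arrays were higher than both WT day 4 arrays for 4 of the 7 (18%). Ndc80, which grips microtubules, had 106 and 106 in heterozygous, 111 and 68.8 in WT day 4 and 22.1 and 21.0 in WT day 1 epithelium. Its day 4 groups overlapped, with a rise in WT day 4 over low WT day 1 signals (limma adjusted p = 0.0241, 0.0725 in the trend fit) and a change of 0.28 ± 0.29 between heterozygous and WT day 4. Spc25, a subunit of the same complex, had 854 and 650.0 in heterozygous, 595 and 398 in WT day 4 and 161 and 189 in WT day 1 epithelium. It rose in heterozygous over WT day 1 (2.09 ± 0.31, adjusted p = 0.0300) and did not pass in WT day 4 over WT day 1 (1.47 ± 0.31, adjusted p = 0.0503). Cenpk, of the inner kinetochore, had 269.5 and 217 in heterozygous, 187 and 170.4 in WT day 4 and 43.5 and 60.0 in WT day 1 epithelium, with a rise of 1.79 ± 0.26 in WT day 4 (adjusted p = 0.0237). The change between heterozygous and WT day 4 was 0.61 ± 0.31 for Spc25 and 0.43 ± 0.26 for Cenpk (adjusted p = 0.451 and 0.506). Their other probe sets ran the other way there, with -0.84 for Spc25 and -1.19 and -0.99 for Cenpk. For Spc25 in heterozygous minus WT day 1, limma's default adjusted p ran from 0.0038 to 0.313 over the settings with all arrays. Nuf2, the partner of NDC80, and Cenpf, a protein of the outer kinetochore, had signals over 100 on array 277 and far lower ones on array 284, and neither passed in the default fit. Cenpa, the histone H3 variant that marks centromeres, was higher on both heterozygous arrays than on all WT arrays (1.83 ± 0.56 against WT day 4, adjusted p = 0.318). Cenpe, a kinetochore motor, overlapped between the day 4 groups (0.21 ± 0.42, adjusted p = 0.834).

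Of the 8 spindle genes, 6 were higher on both heterozygous arrays than on both WT day 4 arrays (18% of all genes). The 2 that were on average lower on the chosen probe set were Kif15 and Tpx2. Aurka, the kinase of spindle poles, had 288 and 361 in heterozygous, 222 and 127 in WT day 4 and 47.8 and 46.1 in WT day 1 epithelium. It rose in WT day 4 over WT day 1 (limma adjusted p = 0.0402), and heterozygous arrays were higher still (0.94 ± 0.34 against WT day 4, adjusted p = 0.372). Nusap1, which bundles spindle microtubules, had 640.2 and 571 in heterozygous, 223 and 46.1 in WT day 4 and 36.8 and 33.6 in WT day 1 epithelium, with a change of 2.56 ± 0.78 against WT day 4 (adjusted p = 0.320). Its other, dimmer probe set had -0.79, and over the settings with all arrays the change in the default fit ran from 0.88 to 2.73. Kif11, the motor that pushes the poles apart, was higher on both heterozygous arrays than on all WT arrays and rose over low WT day 1 signals (limma adjusted p = 0.0251). Kif15, a motor that can share that work, had 19.3 and 34.2 in heterozygous, 226 and 56.8 in WT day 4 and 19.5 and 43.2 in WT day 1 epithelium. It was low on both heterozygous arrays, and below both WT day 4 arrays, a difference that did not pass (adjusted p = 0.392). Tpx2, the activator of AURKA, had 125 and 65.7 in heterozygous, 159 and 157 in WT day 4 and 50.3 and 58.9 in WT day 1 epithelium, a change of -0.80 ± 0.36 (adjusted p = 0.425). Its probe sets disagreed: another one had 227 and 226 in heterozygous, 129.6 and 41.4 in WT day 4 and 41.9 and 49.5 in WT day 1 epithelium, so no direction is given for Tpx2. Hmmr and Dlgap5, which act on spindle microtubules, were higher on both heterozygous arrays than on all WT arrays, by 1.37 ± 0.74 and 1.21 ± 0.69 against WT day 4, and did not pass (adjusted p = 0.474 and 0.489).

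Of the 7 midzone and cytokinesis genes, 6 were higher on both heterozygous arrays than on both WT day 4 arrays (18% of all genes). All 7 were higher there than on both WT day 1 arrays (32.2%). Anln (anillin), the scaffold of the contractile ring, had 1559 and 1565 in heterozygous, 646 and 444 in WT day 4 and 105 and 88.2 in WT day 1 epithelium. It rose at each step, in WT day 4 over WT day 1 by 2.46 ± 0.27 (limma adjusted p = 0.0136) and in heterozygous over WT day 4 by 1.54 ± 0.27 in the trend fit (adjusted p = 0.00978, and 0.196 in the default fit, where it lay between 0.0449 and 0.196 over the settings with all arrays). Ect2, which activates the GTPase RhoA at the equator, had 659 and 525 in heterozygous, 249 and 211 in WT day 4 and 30.7 and 56.5 in WT day 1 epithelium. It rose in WT day 4 over WT day 1 (2.43 ± 0.37, adjusted p = 0.0252) and did not pass between heterozygous and WT day 4 (1.35 ± 0.37, adjusted p = 0.282). Kif23, a motor of the centralspindlin complex, had 524 and 427 in heterozygous, 164 and 119 in WT day 4 and 278 and 159.9 in WT day 1 epithelium. It rose in heterozygous over WT day 4 in the trend fit (1.75 ± 0.37, adjusted p = 0.0304, and 0.225 in the default fit), while the WT comparison did not pass (-0.59 ± 0.37, adjusted p = 0.363). Its other probe sets disagreed in heterozygous minus WT day 4, with 3.27 and -1.88. Over the settings with all arrays the change ran from 1.05 to 2.05 and limma's default adjusted p from 0.0650 to 0.580. Prc1, which crosslinks midzone microtubules, had 401 and 334 in heterozygous, 224 and 74.6 in WT day 4 and 215 and 116 in WT day 1 epithelium, with WT arrays of both days interleaved and a change of 1.49 ± 0.64 in heterozygous epithelium (adjusted p = 0.414). Kif20a, a motor that works at the midzone, rose in heterozygous over WT day 1 (adjusted p = 0.0278), with every WT signal of it low. Racgap1, the partner of KIF23 in centralspindlin, was higher by 1.02 ± 0.46 over WT day 4 (adjusted p = 0.423), and Kif4, a motor of chromosomes and the midzone, overlapped between the day 4 groups (0.06 ± 1.07, adjusted p = 0.982).

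Of the 6 chromosome genes, 3 rose in WT day 4 over WT day 1 in the default fit (7.58% of all genes). In the trend fit 1 rose in heterozygous over WT day 4 (1.93%). Mki67, the protein of mitotic chromosome surfaces used as a proliferation marker, had 490.4 and 504 in heterozygous, 102 and 16.8 in WT day 4 and 48.8 and 46.4 in WT day 1 epithelium. WT day 4 array 277 read above both day 1 arrays and array 284, where it was low, below them. Mki67 rose in heterozygous over WT day 4 in the trend fit (3.54 ± 0.87, limma adjusted p = 0.0318, and 0.259 in the default fit). This change ran from 2.71 to 3.985 over the settings with all arrays. Top2a, the topoisomerase that untangles sister chromatids, had 1222 and 1412 in heterozygous, 816 and 439 in WT day 4 and 103 and 115 in WT day 1 epithelium. It rose in WT day 4 over WT day 1 (2.45 ± 0.36, limma adjusted p = 0.0239), and the further change in heterozygous epithelium of 1.13 ± 0.36 did not pass (adjusted p = 0.332, 0.0736 in the trend fit).

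Smc2, the common core of both condensins, had 2026 and 1846 in heterozygous, 1606 and 1626 in WT day 4 and 251 and 255 in WT day 1 epithelium. The jump lay between the days, 2.67 ± 0.18 in WT day 4 over WT day 1 (limma adjusted p = 0.00754), and the heterozygous arrays lay only just above WT day 4 (0.26 ± 0.18, adjusted p = 0.564). Ncaph, a subunit of condensin I, had 959.8 and 1003 in heterozygous, 895 and 1093 in WT day 4 and 54.8 and 125 in WT day 1 epithelium. It rose by 3.56 ± 0.45 in WT day 4 over WT day 1 (adjusted p = 0.0171), while its day 4 groups overlapped, with a change of -0.01 ± 0.45. Smc4, the partner of SMC2, had 1406 and 1425 in heterozygous, 1070.4 and 1514 in WT day 4 and 1371 and 1697 in WT day 1 epithelium, with all 3 groups overlapping and no comparison passing (heterozygous minus WT day 4 0.15 ± 0.27, adjusted p = 0.807). Ncapg, another condensin I subunit, was higher on both heterozygous arrays than on all WT arrays, and did not pass in any comparison.

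The pair of WT day 4 arrays disagreed over this set more than any other pair of arrays of 1 group. The median absolute log2 difference within a pair was 0.17 for the 52 genes in heterozygous, 0.99 in WT day 4 and 0.44 in WT day 1 epithelium. Over all genes it was 0.28 in heterozygous, 0.59 in WT day 4 and 0.32 in WT day 1 epithelium. Array 277 read above array 284 for 43 of the 52 (65.6% of all genes). It lay above both WT day 1 arrays for 46 (60.7%), array 284 for 26 (42%). Among the 20 genes for which only array 277 did so (25.3% of all genes) were Aurkb, Birc5, Ccnb2, Cdc20, Mki67 and Prc1, whereas Anln, Smc2, Ncaph, Incenp, Top2a and Ube2c lay above day 1 on both. On array 284 alone, 15 genes were below both day 1 arrays (38.9%) and 11 between them (19.1%).

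For most of the genes, heterozygous epithelium was higher than either WT day 4 array taken alone. Against array 277, both heterozygous arrays were higher for 42 of the 52 genes, where 27.3% of all genes were, and the mean of the heterozygous arrays minus array 277 had a median of 0.61 over the 52 (-0.39 over all genes). Against array 284 both were higher for 46 (37.9% of all genes), with a median of 1.98 (-0.02 over all genes). Mad2l1 differed by 1.50 from array 277 and 1.38 from array 284, and Kif23 by 1.52 and 1.98. The choice of array weighed more on Anln, with 1.27 from array 277 and 1.81 from array 284, on Ube2c, with 1.08 and 2.08, on Cdk1, with 1.19 and 2.72, and on Prc1, with 0.70 and 2.28. Bub1, Esco2 and Melk were low on both WT day 4 arrays, and Birc5 and Mki67 on array 284 but not on 277, so no size against each array alone is given for them. How much of the difference between the WT day 4 arrays is technical was not tested.

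**Figure D5:**
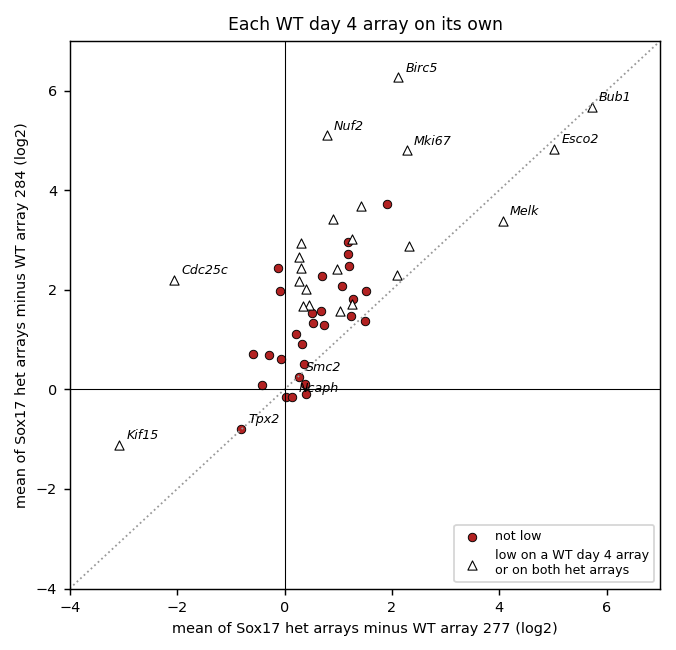
Mean log2 signal of the 2 heterozygous arrays minus that of WT day 4 array 277 (horizontal) and minus that of array 284 (vertical), 1 symbol per mitosis gene; open triangles mark genes low on a WT day 4 array or on both heterozygous arrays, whose place shows a direction and not a size, and the dotted line marks equal differences. Symbols right of and above the zero lines are higher than both WT arrays, and most lie above the dotted line, where the difference from array 284 is the larger.

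Other probe sets of the same genes gave a second reading. Of 65 further probe sets of the 35 genes with several, 41 had the sign of the chosen one in heterozygous minus WT day 4, 53 in WT day 4 minus WT day 1 and 55 in heterozygous minus WT day 1. Among the 43 of them that reached a signal of 100, these were 26, 36 and 39. For Cdc20, the activator of the anaphase-promoting complex, the chosen probe set had 404 and 469 in heterozygous, 463 and 109 in WT day 4 and 137 and 114 in WT day 1 epithelium, with day 4 groups that overlap. A second one had 803 and 861 in heterozygous, 239 and 75.3 in WT day 4 and 58.9 and 79.1 in WT day 1 epithelium, and it passed in the trend fit over every probe set (log2 change 2.62, adjusted p = 0.0202, and 0.286 in the default fit). The probe sets of Kif2c, which dismantles wrongly attached microtubules, disagreed. The chosen one had 121 and 111 in heterozygous, 91.4 and 35.7 in WT day 4 and 85.7 and 33.0 in WT day 1 epithelium. Another had 155 and 136 in heterozygous, 15.3 and 3.20 in WT day 4 and 31.9 and 31.0 in WT day 1 epithelium. The remaining ones overlapped between the day 4 groups. They had 107 and 128 in heterozygous against 182 and 59.6 in WT day 4 (0.16), and 47.5 and 47.1 against 118.5 and 31.2 (-0.36).

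Further genes of division were covered by 3 lists. Of 67 measured other mitosis genes, 0 passed in heterozygous minus WT day 4 in the default fit (as did 0% of all genes), with a median of 0.40. At an unadjusted p under 0.05, 13 of the 67 were higher (4.56% of all genes) and 1 lower (8.66%). In the trend fit 1 rose, near the 1.93% of all genes. That 1 gene was Kif22, a motor on chromosome arms, with 1085 and 1033 in heterozygous, 286 and 309.7 in WT day 4 and 110.0 and 141 in WT day 1 epithelium. In WT day 4 over WT day 1, 6 of the 67 rose (7.58% of all genes, a share close to theirs) and 0 fell (5.73%), with a median of 0.78. The trend fit had 17 higher there (14%) and 1 lower (10.8%). In heterozygous over WT day 1, 11 rose (5.07%) and 0 fell (4.48%), with a median of 0.94. Kif22 rose in both comparisons with day 1 (limma adjusted p = 0.0351 and 0.0103), as did Wee1, the kinase that restrains CDK1, with 1414 and 1404 in heterozygous, 1042 and 1101 in WT day 4 and 392 and 430.4 in WT day 1 epithelium. Kntc1, which brings checkpoint proteins to kinetochores, had 111 and 90.4 in heterozygous, 9.71 and 4.60 in WT day 4 and 4.33 and 6.11 in WT day 1 epithelium and rose in heterozygous over WT day 1 (adjusted p = 0.0160).

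Of 19 genes of the DREAM, MuvB and E2F machinery, 0 passed between heterozygous and WT day 4 in either fit, with a median of 0.18. Of all genes, 0% passed in the default fit, and 1.93% rose and 1.59% fell in the trend fit. At an unadjusted p under 0.05, 1 of the 19 was higher (4.56% of all genes) and 0 lower (8.66%). In WT day 4 minus WT day 1 the fits differed. The default fit called 1 of the 19 lower (5.73% of all genes) and 0 higher (7.58%). That gene was E2f8, a repressor of cell cycle genes (limma adjusted p = 0.0152, 0.170 in the trend fit). It had 69.0 and 67.0 in heterozygous, 17.2 and 17.8 in WT day 4 and 63.3 and 54.4 in WT day 1 epithelium. The trend fit called 5 of the 19 higher, Lin37, Rbbp4, Rbl2, E2f7 and Tfdp2, against 14% of all genes, and 0 lower, against 10.8%. In heterozygous minus WT day 1, 0 passed in the default fit, where 5.07% of all genes rose and 4.48% fell. At an unadjusted p under 0.05, 5 of the 19 were higher (13.8% of all genes) and 0 lower (12.1%). In the trend fit 5 rose (11.7% of all genes).

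The list of the anaphase-promoting complex held 12 of its subunits, its coactivator Fzr1 and its inhibitor Fbxo5. None of the 14 passed in any comparison in the default fit. Of all genes, 0% passed in heterozygous minus WT day 4. The shares higher and lower were 7.58% and 5.73% in WT day 4 minus WT day 1, and 5.07% and 4.48% in heterozygous minus WT day 1. At an unadjusted p under 0.05, 0 were called in heterozygous minus WT day 4 (4.56% of all genes higher, 8.66% lower). In WT day 4 minus WT day 1, 3 were higher (17.8%) and 0 lower (11.9%). In heterozygous minus WT day 1, 2 were higher (13.8%) and 0 lower (12.1%). The trend fit called 0 in heterozygous minus WT day 4 (1.93% of all genes higher, 1.59% lower). It called 4 higher and 1 lower in WT day 4 minus WT day 1 (14% and 10.8% of all genes), and as many in heterozygous minus WT day 1 (11.7% and 9.65%). The median changes were 0.04 in heterozygous minus WT day 4, 0.20 in WT day 4 minus WT day 1 and 0.24 in heterozygous minus WT day 1.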

How the data were processed

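RNA of 6 uterine epithelium samples was hybridised to 1-colour Affymetrix arrays. The authors deposited 1 intensity per probe set and array, on a linear scale. Per the submitters' processing notes the software was Transcriptome Analysis Console, Affymetrix Expression Console and RMA, with neither version nor role. How probes were summarised is not given in the sources, and the values were not on RMA's log2 scale. The number of arrays limits the precision.

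Of 45101 probe sets, the 34945 with 1 gene symbol in the platform annotation were used, 1 per gene (highest mean log2 value), as log2(signal + 1) without filter or further normalization. Folds of dim genes on this scale are uncertain in size, since they depend on the pseudocount. A coefficient per group was fitted to all 6 arrays over 18193 genes in limma 3.58.1 (R 4.3.3), with 3 residual degrees of freedom, eBayes at its defaults and Benjamini-Hochberg adjustment over all genes. The fit with an intensity trend in eBayes is an alternative. The fits were tested on simulated data. No exact permutation test was run, since its smallest p with 2 arrays per group is 0.333. No paired numbers or batches are labelled.

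The genes, role groups and lists were chosen with earlier results of these data known. Signals are given for the 2 brightest genes per role, for Mki67, Top2a, Cdk1, Foxm1, Aurka and Plk1, for called genes in order of p, for genes of mean signal 100 or more that run against the set's median, and for the 4 genes of smallest p in the trend fit. Kif15, Kif2c and Cdc20 were added after their values were seen. Alternatives were quantile normalization, centring, a pseudocount of 32, a minimum mean signal of 100, averaging a gene's probe sets, fitting each probe set, and leaving out each array.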

Additional observations from a re-analysis of the deposited data

How the results depend on the processing

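No paired analysis was possible because the sample numbers in the labels differ between all groups. With all 6 arrays, 0 of the 52 genes passed between heterozygous and WT day 4 epithelium in limma's default fit, against 9 with an intensity trend, 3 above a mean signal of 100 (Anln, Mad2l1 and Melk) and 1 with a pseudocount of 32. The 9 became 15 with quantile normalization, chosen after seeing the data, and 0 to 21 on leaving out 1 array. The median change of 1.32 ran from 0.61 to 1.98 on leaving out 1 array. Between WT day 4 and WT day 1, the 14 genes became 6 with a gene's probe sets averaged and 0 to 18 on leaving out 1 array, the 13 of the trend fit 11 to 28, and the median of 0.89 became 0.39 to 1.79. Between heterozygous and WT day 1, the 18 genes became 29 with the trend and also 29 with a pseudocount of 32, and 0 to 31 on leaving out 1 array, while the 29 of the trend fit became 13 to 38. The change of Ccnb2 between WT day 4 and WT day 1 in the trend fit was -1.30 without WT day 4 array 277 and turned to 1.21 without array 284. The cause of these shifts was not tested, and the fits without 1 array also have fewer arrays. Counts under the other settings stand here without the share of all genes in the same setting. Scaling moved the median of all genes: heterozygous minus WT day 4 was -0.20, and -0.03 after centring or -0.01 after quantile normalization, while the 52 genes were at 1.32, 1.50 and 1.60. WT day 4 minus WT day 1 was 0.30, 0.10 and 0.07 over all genes, and 0.89, 0.69 and 0.65 over the 52. With 2 arrays per group and no detection calls, changes against groups with signals under 50 on both arrays are known in direction at most.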
